A study of Mus musculus with 6 samples.

Results

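The genes described here are the transcription factors NRF2 (Nfe2l2) and NRF1 (Nfe2l1), the NRF2 repressor Keap1, the small MAF factors Maff, Mafg and Mafk, the KEAP1-binding autophagy receptor Sqstm1 and the quinone reductase Nqo1. They are 8 genes of the 26096 in the deposited table, chosen by symbol, and each symbol stood on a single gene ID. All 8 passed the filter on low values, a minimum of 10 normalized counts in at least 3 libraries, which left 15597 genes to be tested. The libraries were made from wild-type (WT) microglia of the mouse, which are macrophages of the central nervous system. In 3 libraries the cells had received medium from bone marrow-derived macrophages undergoing ferroptosis, an iron-dependent cell death driven by lipid peroxidation (FeM CM, called ferroptotic medium here). In 3 libraries the cells had received medium from normal bone marrow-derived macrophages (C CM, called control medium). The sources used here do not name the inducer of ferroptosis, the exposure time, or whether the microglia were primary cells or a line.

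NRF2 is a basic leucine zipper factor of the cap'n'collar family. In unstressed cells KEAP1 holds it in the cytoplasm and presents it to the CUL3 ubiquitin ligase, so that its protein is degraded. Electrophiles and oxidants modify cysteines of KEAP1, NRF2 then accumulates, pairs with a small MAF protein and binds antioxidant response elements near genes of glutathione synthesis, NADPH supply, haem breakdown and quinone reduction. SQSTM1 (p62) can also take KEAP1 away from NRF2 and deliver it to autophagy, and Sqstm1 is itself an NRF2 target. NRF1 is a related factor anchored in the endoplasmic reticulum that drives proteasome genes. Much of this control acts on protein, which was not measured in the data used here.

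The stretches of promoter that hold an antioxidant response element core are shown because Nfe2l2 and Mafg are themselves described as NRF2 targets. The core was searched as TGACNNNGC on both strands in windows reaching from 250 bases before to 50 after each RefSeq gene start (RefSeq, GRCm38.p6). All 8 members were in that table, with 14 windows in all, 5 of them for Nfe2l1 and 3 for Maff. A match lay in 4 windows, of 4 members, and these are printed 5′ to 3′ along the gene's own strand with the match in capitals.
Nfe2l2: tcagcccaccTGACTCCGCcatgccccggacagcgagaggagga
Maff: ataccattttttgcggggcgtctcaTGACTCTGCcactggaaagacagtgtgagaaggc
Mafg: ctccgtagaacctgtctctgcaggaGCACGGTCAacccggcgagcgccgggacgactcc
Mafk: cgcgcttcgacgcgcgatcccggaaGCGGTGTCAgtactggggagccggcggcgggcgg
The Nfe2l2 stretch is chr2:75704870-75704913 on the minus strand and its match begins 240 bases before the gene start. The Maff stretch is chr15:79346484-79346542 on the plus strand, with the match beginning 112 bases before 1 of its 3 listed starts. The Mafg stretch (chr11:120633736-120633794, minus strand) and the Mafk stretch (chr5:139791498-139791556, plus strand) hold the match on the opposite strand, beginning 222 and 13 bases before the start. Of all 32851 windows, 12.4% held the core, and of 27025 genes 13.99% held it in at least 1 window.

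The windows of Keap1, Nfe2l1, Sqstm1 and Nqo1 did not hold these letters, which says nothing of elements further away. The promoter of Maff at another of its starts held a cyclic AMP response element, TGACGTCA, a palindrome bound by CREB and ATF factors, which 1.79% of windows held. That motif was chosen after the values were seen.
Maff: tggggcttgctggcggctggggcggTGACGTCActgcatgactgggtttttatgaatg
This stretch is chr15:79347466-79347523 on the plus strand, and the match begins 29 bases before that start. The element did not overlap a match of TGACNNNGC.

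Depth, worked out from the deposited values, was 39624311 to 41953603 reads per library with ferroptotic medium and 43419446 to 50557794 with control medium. In all, 6629 of the 15597 tested genes passed a limma adjusted p of 0.05. The labels do not state whether libraries of a medium are from separate cultures, and the p-values therefore rest on the spread between these libraries, part or all of which may be technical. The 12 microglia and macrophage markers summed to 153742 to 161603 normalized counts with ferroptotic medium and 171610 to 177692 with control medium. Csf1r, Cd68, Spi1 and Ptprc were abundant, whereas P2ry12 and Tmem119, which mark microglia against other macrophages, were near 0, with 3 and 21 reads over the 6 libraries. Of the neutrophil markers S100a8 was the single gene tested, with 144 ± 14.1 and 13.2 ± 3.46 normalized counts in the ferroptotic and control libraries (SD, n = 3 each), and Mpo and Elane had 7 and 3 reads over the 6 libraries. Summed counts of the neutrophil list were 136 to 159.5 with ferroptotic medium and 9.25 to 15.7 with control medium, those of the neuron list 55.3 to 69.6 and 5.88 to 16.6, and those of the fibroblast list 39.3 to 77.5 and 11.7 to 21.9. The neuron sum was nearly all Tubb3 with ferroptotic medium (means 61.3 and 4.99), and Map2 went the other way (1.02 and 5.60). The fibroblast rise was mainly Dcn (40.4 and 8.49). Pdgfrb did not pass, and Col1a1 and Col1a2 had 10 and 1 reads over the 6 libraries. Astrocyte markers summed to 4182 to 4358 with ferroptotic medium and 3357 to 3652 with control medium, oligodendrocyte markers to 6139 to 6351 and 8821 to 9383, endothelial markers to 388 to 405 and 309 to 337, and T cell markers to at most 3.32 and 15.7. The part of these markers in the differences below was not tested. In bulk RNA, fewer cells of a type and less RNA per cell cannot be told apart.

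With ferroptotic medium, 5 of the 8 members rose, 1 fell and 2 did not pass the test. Maff and Sqstm1 rose 3.31-fold and 3.19-fold, Nfe2l1 and Mafg 1.77-fold and 1.62-fold, and Nfe2l2 1.12-fold, as ratios of mean normalized counts. Keap1 fell to 63.9% of its control level. Mafk and Nqo1 did not pass. The share of all tested genes past the same threshold was 42.5%, with 19.7% higher and 22.8% lower, so the members' 75% stands beside a response that touched a large part of the transcriptome. In 6 members the ferroptotic and control libraries did not overlap, as in 53.7% of all tested genes.

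**Figure D1:**
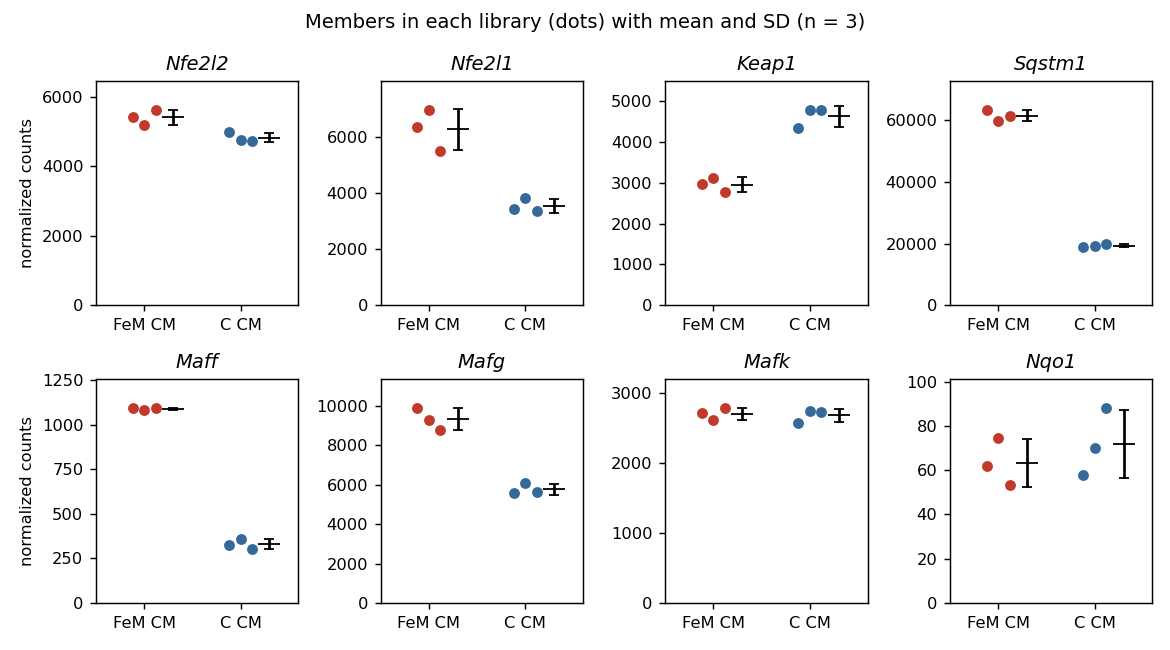
Normalized counts (vertical axes from 0, a separate scale for each gene) of the 8 members in the 3 libraries with ferroptotic medium (red, left) and the 3 with control medium (blue, right), with the mean and SD beside each group. The red and blue dots do not overlap in 6 genes; those of Mafk and Nqo1 do.

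The cap'n'collar factors moved by unequal amounts. Nfe2l2 (ENSMUSG00000015839) had 5418, 5188 and 5614 normalized counts in the ferroptotic libraries, against 4976, 4762 and 4727 in the control libraries. The groups did not overlap, but the gap between the lowest ferroptotic and the highest control library was small beside the level. The means were 5407 ± 213 with ferroptotic medium and 4822 ± 135 with control medium, a log2 difference of 0.16 (SE 0.04; limma adjusted p = 0.0136; 95% interval 0.07 to 0.26). The call was lost without control replicate 3 (limma adjusted p = 0.0525) and with limma's trend and robust options off (0.0559).

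Nfe2l1 (ENSMUSG00000038615) had 6338, 6933 and 5499 normalized counts with ferroptotic medium, against 3430, 3822 and 3344 with control medium. Every ferroptotic library lay above every control library, though the ferroptotic libraries were spread more widely, at 6257 ± 721, than the control libraries, at 3532 ± 255. The log2 difference was 0.82 (SE 0.09; limma adjusted p = 0.000368). The log2 normalized count of Nfe2l1 minus that of Nfe2l2, taken within each library and not corrected for length, averaged 0.20 ± 0.22 with ferroptotic medium, where 1 of the 3 libraries was below 0, and -0.45 ± 0.12 with control medium.

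The repressor and the receptor that binds it moved in opposite directions. Keap1 (ENSMUSG00000003308) had 2967, 3125 and 2775.5 normalized counts with ferroptotic medium, against 4328, 4769 and 4773 with control medium. The highest ferroptotic library was below the lowest control library. Means were 2956 ± 175 and 4623.5 ± 256 with ferroptotic and control medium, a log2 difference of -0.65 (SE 0.06; limma adjusted p = 3.66e-05; 95% interval -0.78 to -0.51). An antisense gene, Gm16754, overlaps 7 annotated exons of Keap1 in GENCODE M21. It had 218 ± 11.3 normalized counts with ferroptotic medium and 150.3 ± 97.3 with control medium (limma adjusted p = 0.406), and the sources used here do not state whether counting used strand, so a part of the reads of either gene may belong to the other.

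Sqstm1 (ENSMUSG00000015837) had 63241, 59884 and 61389 normalized counts with ferroptotic medium, against 18783, 19268 and 19832 with control medium. The groups lay far apart and neither varied much. Its means of 61505 ± 1682 and 19294 ± 525 with ferroptotic and control medium gave a log2 difference of 1.67 (SE 0.03; limma adjusted p = 6.89e-09), the 312th largest rise of the 15597 tested genes. The authors' deposited FPKM for Sqstm1 were 389, 369 and 372 with ferroptotic medium and 117, 119.8 and 122 with control medium. Mrnip, which overlaps an exon of Sqstm1 on the other strand, had 172 ± 20.3 and 189 ± 27.5 normalized counts in the ferroptotic and control libraries.

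**Figure D2:**
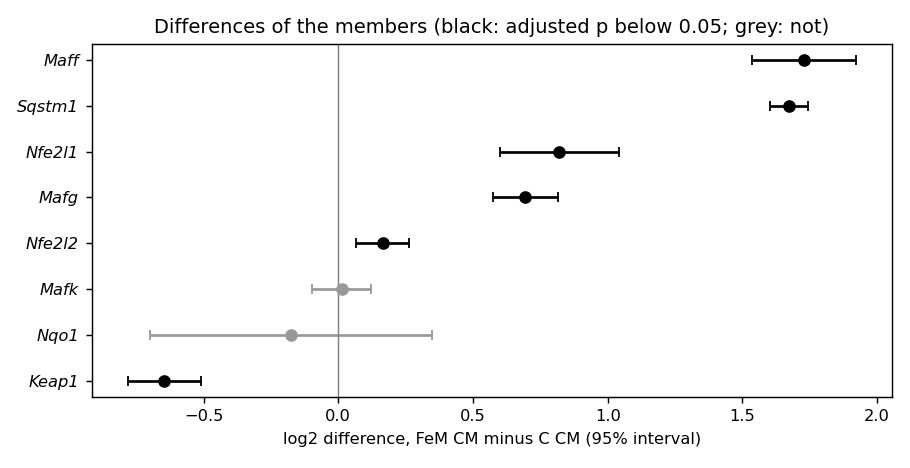
Log2 difference of each member, ferroptotic minus control medium, on the horizontal axis, with limma's 95% interval (n = 3 libraries per medium); black points passed an adjusted p of 0.05 and grey ones did not. Maff (1.73) and Sqstm1 (1.67) lie furthest to the right, Keap1 (-0.65) is the single called fall, and the intervals of Mafk and Nqo1 cross 0.

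The small MAF factors have a DNA-binding zipper but no activation domain. They activate as partners of NRF2 or NRF1 and repress as homodimers or as partners of BACH1. The 3 genes differed in response. Maff (ENSMUSG00000042622) had 1095, 1086 and 1094 normalized counts with ferroptotic medium, against 328, 358 and 302 with control medium. The ferroptotic libraries were nearly identical and all more than 3 times the mean of the control libraries. The means were 1092 ± 5.30 with ferroptotic and 329.6 ± 27.9 with control medium, a log2 difference of 1.73 (SE 0.08; limma adjusted p = 8.06e-07), the 287th largest rise of the tested genes. The authors' deposited FPKM for Maff were 8.67, 8.62 and 8.55 with ferroptotic medium and 2.63, 2.86 and 2.40 with control medium. Maff and Sqstm1 were the 2 members in the authors' deposited table of changed genes. The smallest absolute log2 difference in that table was 1.00 and the largest p of the authors' test 0.0498. Members with smaller differences were thus left out whatever their p. The authors' deposited false discovery rates were 8.58e-40 for Mafg, 2.00e-27 for Keap1, 4.77e-27 for Nfe2l1 and 0.00122 for Nfe2l2. For Mafk and Nqo1 they were 0.952 and 0.822.

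Mafg (ENSMUSG00000051510) had 9901, 9310.2 and 8801 normalized counts with ferroptotic medium, against 5568, 6099 and 5632 with control medium, with no overlap. The log2 difference was 0.69 (SE 0.05; limma adjusted p = 1.24e-05; means 9337 ± 551 with ferroptotic and 5766 ± 290.0 with control medium). Sirt7 overlaps 1 annotated exon of Mafg on the same strand. It had 1521 ± 253 normalized counts with ferroptotic medium and 1325 ± 246 with control medium, a log2 difference of 0.20 (SE 0.17, limma adjusted p = 0.385).

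Mafk (ENSMUSG00000018143) had 2707, 2607 and 2781 normalized counts with ferroptotic medium, against 2568, 2741 and 2721 with control medium. The groups overlapped and their means lay within the spread of either. The log2 difference was 0.01 (SE 0.05; limma adjusted p = 0.87), with a 95% interval of -0.10 to 0.12, or 0.934-fold to 1.09-fold. Its sign turned in 3 of the 15 alternatives tried, so no direction is given.

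Per kilobase of annotated exon, the make-up of small MAF RNA differed between the media. Mafk made up 24.9% ± 1.25 of the small MAF signal with ferroptotic medium and 37.3% ± 0.98 with control medium (SD, n = 3 each). Maff made up 15.2% ± 0.48 and 6.90% ± 0.42 with ferroptotic and control medium, and Mafg 59.9% ± 1.68 and 55.8% ± 0.58. Their sum was 2776 ± 92.6 normalized counts per kilobase with ferroptotic medium and 1840.4 ± 77.9 with control medium. The lowest ferroptotic library stood at 2703 and the highest control library at 1927.

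**Figure D3:**
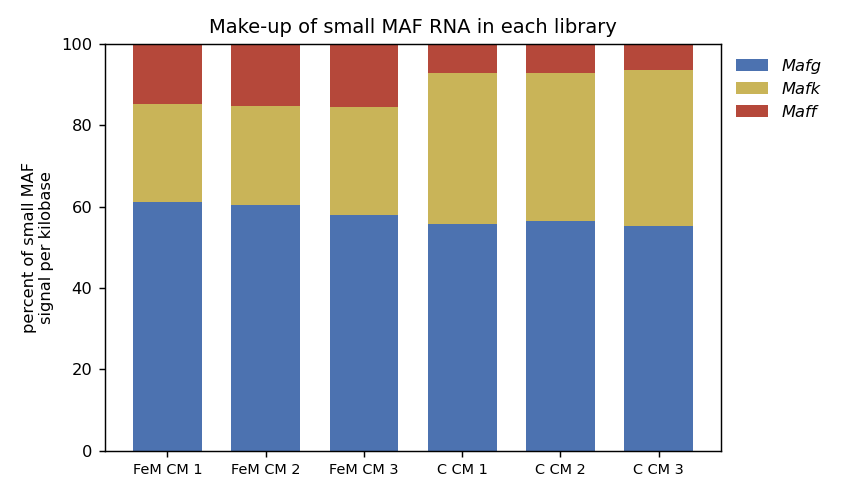
Share of Mafg (blue), Mafk (yellow) and Maff (red) in the summed small MAF normalized counts per kilobase, as stacked bars in percent, for 3 ferroptotic and 3 control libraries. Maff takes 14.7% to 15.6% of the bar in the ferroptotic libraries and 6.42% to 7.17% in the control libraries.

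Within-library differences of log2 normalized counts, from which a factor common to all genes of a library nearly cancels, were compared for 6 pairs of members. The log2 difference Maff minus Mafg was -3.09 ± 0.08 with ferroptotic medium and -4.13 ± 0.08 with control medium, so Maff gained 1.03 on Mafg. Against Mafk, Maff gained 1.72 and Mafg gained 0.68. Nfe2l2 minus Keap1 was 0.87 ± 0.14 with ferroptotic and 0.06 ± 0.12 with control medium, a gain of 0.81 for Nfe2l2. Sqstm1 minus Keap1 was 4.38 ± 0.11 with ferroptotic and 2.06 ± 0.05 with control medium, a gain of 2.32, and Nfe2l1 gained 0.66 on Nfe2l2. In none of the 6 pairs did the ferroptotic and control libraries overlap. The share of other gene pairs without overlap was not worked out, and 53.7% of single tested genes had none. The pairs restate the differences of the single members and add no separate support. Each pair had p = 0.10 in an exact two-sided permutation test over the 6 libraries and 0.10 after Benjamini-Hochberg adjustment over the 6 pairs. That is the smallest p that 3 against 3 libraries allow.

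Nqo1 (ENSMUSG00000003849) encodes a quinone reductase that is widely used as a readout of NRF2 activity. It was scarce in these cells in both media, with 58, 73 and 48 reads in the ferroptotic libraries and 59, 83 and 90 in the control libraries. It had 61.7, 74.7 and 53.2 normalized counts with ferroptotic medium, against 57.8, 69.8 and 88.1 with control medium. The groups overlapped, with the highest value in a control library. The log2 difference was -0.18 (SE 0.23; limma adjusted p = 0.583), and its 95% interval of -0.70 to 0.35, or 0.616-fold to 1.27-fold, lies below the log2 differences of Maff, Sqstm1, Nfe2l1 and Mafg. Hmox1, the haem oxygenase that is another classical NRF2 target, had 181437 ± 3178 and 12488 ± 154 normalized counts in the same ferroptotic and control libraries.

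Levels can be compared between genes only per length. For this, normalized counts were divided by the kilobases of annotated exon in GENCODE M21, a scale that followed the authors' deposited FPKM at r = 0.99998 over the 617 to 645 genes of their shorter table with at least 200 reads in a library. With ferroptotic medium the order per kilobase was Sqstm1 (18327 ± 501), Mafg (1663.5 ± 98.1), Nfe2l2 (1424 ± 56.2), Nfe2l1 (1149.9 ± 132), Mafk (692 ± 22.4), Keap1 (629.8 ± 37.3), Maff (421 ± 2.04) and Nqo1 (40.7 ± 6.98). No neighbours in that order overlapped in their libraries. With control medium it was Sqstm1 (5749 ± 156), Nfe2l2 (1270.2 ± 35.5), Mafg (1027 ± 51.7), Keap1 (985 ± 54.6), Mafk (686 ± 24.2), Nfe2l1 (649 ± 46.8), Maff (127 ± 10.8) and Nqo1 (46.3 ± 9.83). There Mafg overlapped Keap1 and Mafk overlapped Nfe2l1. Keap1 thus stood in place 6 of 8 with ferroptotic medium and in place 4 with control medium.

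**Figure D4:**
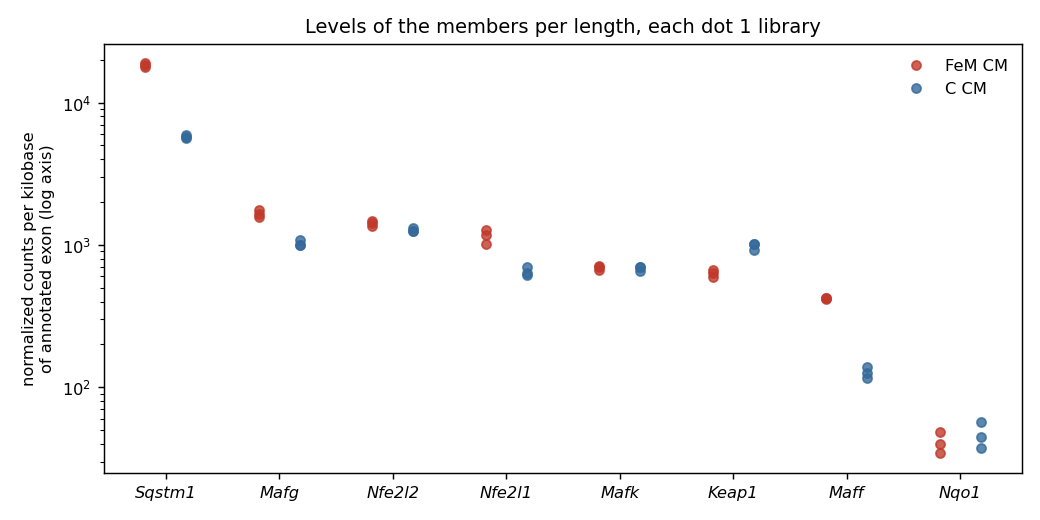
Normalized counts per kilobase of annotated exon (log axis) of the 8 members in each library, with ferroptotic medium (red, left of each pair) and control medium (blue, right), ordered by the ferroptotic mean. Sqstm1 lies highest in both media and Nqo1 lowest, and Mafg, Nfe2l2, Nfe2l1, Mafk and Keap1 lie between 591 and 1764.

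Other factors that pair with small MAF proteins were partly measured. Bach1, the haem-sensing repressor that competes with NRF2 for the same elements, rose to 1539.8 ± 48.1 normalized counts with ferroptotic medium, against 1119 ± 9.14 with control medium (log2 difference 0.46, SE 0.06; limma adjusted p = 0.000189). Nfe2, the haematopoietic member of the family, rose at a low level, with 51.7 ± 1.71 and 16.3 ± 6.55 normalized counts with ferroptotic and control medium (1.67, SE 0.33; limma adjusted p = 0.00351). Nfe2l3 and Bach2 had 6 and 5 reads over the 6 libraries and were below the filter.

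Genes for the turnover of NRF2 protein split in both directions by small amounts. Of 8, Gsk3b (0.33), Btrc (0.29), Fbxw11 (0.23) and Syvn1 (0.19) rose on the log2 scale and Gsk3a (-0.23), Cand1 (-0.21) and Rbx1 (-0.15) fell. GSK3 kinases phosphorylate NRF2 for the β-TrCP ligases that Btrc and Fbxw11 encode, and Rbx1 and Cand1 serve the cullin ligases. Cul3, the scaffold that KEAP1 joins, had 5282 ± 812 and 5318 ± 189.97 normalized counts with ferroptotic and control medium (-0.02; limma adjusted p = 0.904). The call of Rbx1 was lost in 11 of 15 alternatives and that of Syvn1 in 4. The median of the list was 0.08, beside -0.0050 over all tested genes. Past the threshold were 87.5% of the list and 42.5% of all tested genes. Over all tested genes the median absolute log2 difference was 0.29 and the median SE 0.10. Genes with a smaller SE pass at smaller differences, as Gsk3a (SE 0.04) and Cand1 (SE 0.04) did, so the 2 shares are not like for like.

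Of 5 tested genes for other KEAP1-binding proteins, 2 passed, Palb2 (-0.97) and Mcm3 (-0.90), both lower on the log2 scale. These are 40% of the tested list, no more than the 42.5% of all tested genes. The list median was -0.07. Palb2 acts in homologous recombination and Mcm3 in DNA replication. Amer1 (0.12), Pgam5 (0.16) and Ikbkb (-0.07) did not pass, and the symbol Dpp3 was not found in the deposited table. The log2 difference of Ikbkb was -0.15 without ferroptotic replicate 3 and passed there (limma adjusted p = 0.0474).

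Genes for the processing and turnover of NRF1 had 5 rises and 1 fall among 7, with a median of 0.17. That is 85.7% past the threshold, beside 42.5% of all tested genes, whose median SE was 0.10. Small differences can pass at a smaller SE, as that of Vcp did (SE 0.02). Ngly1, the glycanase that NRF1 needs after it leaves the endoplasmic reticulum, rose by 0.77 (SE 0.07; limma adjusted p = 3.4e-05), with 979.9 ± 26.6 and 574 ± 22.6 normalized counts with ferroptotic and control medium. The glycosyltransferase gene Ogt (0.52), the protease gene Ddi2 that cleaves NRF1 (0.17) and the extraction ATPase gene Vcp (0.14) also rose. So did the ubiquitin ligase gene Syvn1 (0.19), listed for turnover and also counted above for NRF2. Hcfc1 fell by 0.62 on the log2 scale, and the ubiquitin ligase gene Fbxw7 did not pass (-0.04; limma adjusted p = 0.752).

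Proteasome subunit genes, known targets of NRF1, had 20 rises and 0 falls among 31 by limma, with a median of 0.16. The share past the threshold was 64.5%, beside 42.5% of all tested genes. The median absolute log2 difference over all tested genes was 0.29, larger than the median of this list. Their median SE was 0.10, whereas Psmd7 passed at a difference of 0.10 with an SE of 0.03. The higher share is therefore not a sign of larger differences. At an unadjusted limma p of 0.05, 2 were lower, Psma4 and Psmb7. The rises were led by Psmd8 (0.50), Psmd4 (0.39), Psmc6 (0.38) and Psma5 (0.32) among those of smallest p. Psmd11 had the largest difference at 0.63. Falls of Psma4 (-0.11) and Psmb7 (-0.12) passed with limma-voom. Psmc3 (-0.14), Psma4 (-0.12) or Psmb7 (-0.13) also passed as lower without ferroptotic replicate 1, ferroptotic replicate 3 or control replicate 2.

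Of 33 further NRF2 target genes, 30 were tested, of which 21 were higher and 2 lower, the median log2 difference being 0.70. That is 76.7% past the threshold, beside 42.5% of all tested genes. Hmox1 (3.86, SE 0.02), the cystine importer Slc7a11 (2.75, SE 0.04), the catalase gene Cat (1.32, SE 0.04) and the glutathione conjugate exporter Abcc1 (1.16, SE 0.04) had the smallest p, with limma adjusted p at or below 9.25e-08. The epoxide hydrolase gene Ephx1 (-1.04) and the biliverdin reductase gene Blvra (-0.31) fell. Besides Nqo1 among the members, Tkt, Taldo1, Gstm1, Fth1, Osgin1, Cbr1 and Cbr3 of this list did not pass. Gclm, the modifier subunit of glutathione synthesis, lost its call without control replicate 2 or 3, and Srxn1, which repairs peroxiredoxins, lost it in 5 of 15 alternatives, among them without ferroptotic replicate 1, 2 or 3 or control replicate 2, with a highest limma adjusted p of 0.0573 and 0.0933. Gclc, the catalytic subunit of glutathione synthesis, and the thioredoxin gene Txn1 each lost their call in 4 of 15 alternatives, with a highest limma adjusted p of 0.0652 and 0.094. Ftl1, a ferritin gene, had a difference of 0.30 that became -0.033 with quantile normalization.

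Among 6 other quinone and flavin-dependent reductase genes, Cyb5r1 (0.92), Por (0.54) and Aifm2 (0.31) rose on the log2 scale, Cyb5r3 (-0.29) fell, and Nqo2 (-0.08) and Cbr1 (-0.15) did not pass. Aifm2 encodes FSP1, which reduces ubiquinone and protects membranes from lipid peroxidation. The list median was 0.11, and 66.7% of the list passed, beside 42.5% of all tested genes.

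Of 14 tested SQSTM1 partners and autophagy genes, 7 rose and 1 fell, and the median log2 difference was 0.19. The share past the threshold was 57.1%, beside 42.5% of all tested genes. The stress sensor Sesn2, which promotes removal of KEAP1 by autophagy, had 5457 ± 161 and 1607 ± 148 normalized counts with ferroptotic and control medium (1.77, SE 0.07; limma adjusted p = 2.33e-07). Its relative Sesn1 fell, with 679.98 ± 68.1 and 1198 ± 25.9 (-0.82, SE 0.08). The LC3-family gene Gabarapl1 (0.73), Nbr1 (0.40), a receptor related to SQSTM1, and Map1lc3b (0.41) rose, as did Map1lc3a (0.56), Ulk1 (0.23) and Tax1bp1 (0.14), whose calls were lost in 10, 9 and 3 of 15 alternatives.

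**Figure D5:**
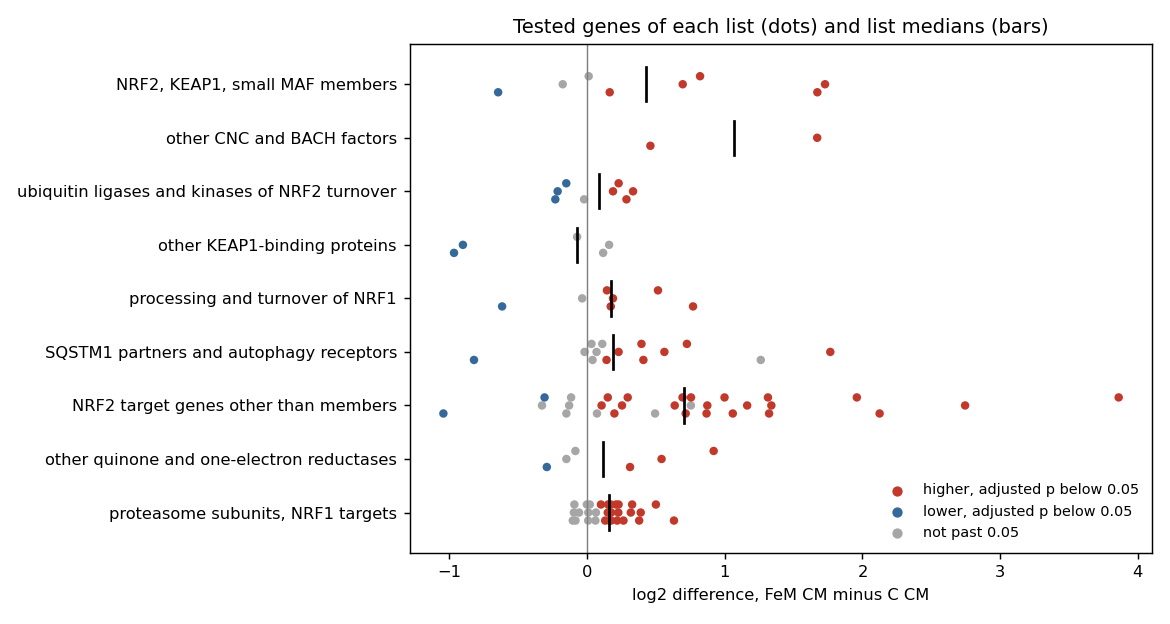
Log2 difference, ferroptotic minus control medium, of every tested gene of the members and of 8 lists of related genes (dots; red higher, blue lower, grey not past an adjusted p of 0.05), with the list median as a black bar. The members span -0.65 to 1.73 with a median of 0.43, and the NRF2 target genes reach 3.86 with Hmox1.

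Genes with the most similar profile were sought among 11561 tested genes with a regular symbol, by the root mean square distance between log2 values centred on each gene's mean over the 6 libraries. That distance takes in the difference between the media, so a log2 difference near that of the member follows from the choice. For Nfe2l2 they were the proteasome gene Psma6 (distance 0.017), Tbc1d22b (0.017) and Mkl2 (0.020). For Keap1 they were Brd8 (0.028), Abcb8 (0.033) and Siva1 (0.033), with log2 differences of -0.67, -0.61 and -0.63. For Sqstm1 they were the alanine aminotransferase gene Gpt2 (0.020), Als2cl (0.046) and the lipid droplet gene Hilpda (0.052), which differed by 1.65, 1.67 and 1.73. The nearest to Nqo1 were further off, Zfp773 (0.066), Wdr77 (0.10) and Lncpint (0.10), and did not pass the test.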

How the data were processed

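Per the labels' protocols, cDNA libraries from an mRNA kit were PCR-amplified and run on a NovaSeq 6000. The submitters' processing notes list HISAT2 (2.1.0), fastp (0.17.1), R (3.4.3) and DESeq2 (1.18.1). Not given in the sources used here: genome build, annotation, counter and strand setting. The authors deposited log2 values per library, their log2 fold change and p-value, and FPKM for a shorter list of 1699 genes. The deposited log2 values are log2(normalized count + 1), so differences of low genes are understated: undoing the log gave whole multiples of 1 read, within 0.01, for 100% of values above 0. Among low values 3 reads were more frequent than 2 (6101 against 5169), so reads may be estimated counts.

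Genes reaching 10 normalized counts in 3 or more libraries were tested with limma 3.58.1 (trend, robust, two-sided; R 4.3.3), medium as the one term, with Benjamini-Hochberg adjustment over 15597 genes and a threshold of 0.05. SE and 95% intervals are limma's. The test was tested on simulated data, in which far fewer genes differed than passed here. Member pairs used exact permutation tests (SciPy 1.17.1). Exon lengths and overlaps came from GENCODE M21, which holds 26051 of the gene IDs; promoters came from RefSeq. Libraries of a medium differed by more than sampling noise (chi-square per degree of freedom 16.3 to 22.8). Alternatives were 2 filters, 2 pseudocounts, 2 scalings, limma-voom on whole reads, limma without trend and robust, a replicate block and each library left out.

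The members and lists were chosen with earlier results of these data known. Named were all members, the lists of 5 or fewer genes, up to 4 genes per longer list by smallest p, genes wherever 5 or fewer are counted, 3 most similar genes for 4 members, and, after their values were seen, further list genes. The list of large MAF factors is not reported here.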

Additional observations from a re-analysis of the deposited data

How the results depend on the processing

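The 6 called members kept their direction in all 15 alternatives, and Maff, Sqstm1, Nfe2l1, Mafg and Keap1 also passed 0.05 in each. Nfe2l2 lost its call with limma's trend and robust options off (log2 difference 0.16; limma adjusted p = 0.0559) and without control replicate 3 (0.0525); its differences with a library left out ran from 0.14 to 0.19. Mafk turned to -0.0093 with limma-voom, and with a library left out it ran from -0.018 to 0.037, below 0 without ferroptotic replicate 3 or control replicate 1; the cause was not tested. Ftl1 turned to -0.033 with quantile normalization. Nqo1 ran from -0.32 to -0.021 over all alternatives, its limma adjusted p from 0.352 to 0.959. The number of members past 0.05 was 5 or 6, and that of all genes 5798 to 6713. Quantile normalization and equal library medians put the median of all genes at 0.0020 and 0.015, against -0.0050.

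With the replicate number as a block, 6226 genes and 6 members passed. Deviations of same-numbered libraries correlated at 0.0086, -0.020 and -0.039, so the numbers were not taken to pair samples. Of 71 called list genes, 57 passed in every alternative, 13 lost their call in at least 1 with the direction kept, and Ftl1 lost it with the turned sign given above (limma adjusted p = 0.753). The 6 pairs of members kept their direction with pseudocounts of 0.5 and 5 and with any library left out. With TGANNNNGC, 6 members had a match in place of 4, and 45.0% of all genes held it in at least 1 window. By window, 10 of the members' 14 held it, beside 41.3% of all windows. Depth limits Nqo1, at 48 to 90 reads a library.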
